A study of Xenopus laevis with 12 samples.

Results

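A set of 6 regulators that pattern the forebrain or its borders, and that do not belong to the eye field transcription factors, was followed across 4 tissue groups of the stage 15 *Xenopus laevis* embryo. They were *fezf2*, *foxd1*, *nr2f1*, *nr2f2*, *barhl2* and *hesx1*. Every probe set of the array whose annotation gave one of these as its only gene symbol was taken, which gave 8 probe sets for 6 genes among 15491 probe sets and 6504 named genes. The frog is allotetraploid, so most genes exist as an L and an S copy, and 6 of these probe sets were annotated to L copies and 2 to S copies. *foxd1* and *hesx1* each had a pair of probe sets, and the others had 1 each. The genes were chosen by their high signal in the eye field against the whole embryo on these same arrays, so that signal is given as a description with no test. The tests concern the groups outside the eye field.

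The study compared the eye field (EF, labelled eye primordia), the posterior neural plate (PNP), the lateral endoderm (LE) and the whole embryo, with 3 arrays of each and 12 in all, to describe the transcripts particular to the region from which the eye arises. All groups came from *X. laevis* at stage 15, a neurula with an open neural plate, and the labels name no mutation, injection or treatment for any of them. Each EF, PNP or LE array held RNA of many pooled pieces, and replicates were collected on different days from different females. EF pieces included the mesendoderm beneath the plate, LE pieces came from the flank, and the whole embryo contained all of these tissues.

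Before the eye becomes visible, the anterior neural plate is divided by transcription factors into future telencephalon, eye field and diencephalon. Zinc finger, winged helix, homeobox and nuclear receptor proteins mark overlapping parts of this territory, and several of them act as repressors that keep neighbouring or posterior programmes out. In a dissected piece, such a gene can be high because the eye field itself uses it. It can also be high because the piece held adjoining forebrain or other tissue, such as the mesendoderm beneath the plate. In bulk samples of this kind, fewer cells that use a gene and less RNA per cell cannot be told apart.

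Signals are given on the log2 scale, where a difference of 1 is a 2-fold change, as mean ± SD of 3 arrays. The highest signal among 27 probe sets for *Bacillus* RNA, which no frog tissue contains, served as the background ceiling of each array and lay between 2.10 and 2.77. Between 61.1% and 82.0% of probe sets exceeded it on an array. Differences were tested with limma over all probe sets, and an adjusted p is the Benjamini-Hochberg value over all of them, with 0.05 as the threshold. Of the measured markers of PNP, 9 of 9 rose in PNP against LE (13.0% of all probe sets) and 9 of 9 against whole embryos (10.2% of all). This list was chosen with earlier results of these data known. The paper assigns some of its genes to mesoderm or to all germ layers, so the counts do not show a purely neural piece. Of 9 endoderm markers measured, 1 rose in LE against whole embryos (3.23% of all probe sets) and 8 did not pass. In PNP against LE, 6 of the 9 were lower and 0 higher, beside 12.6% and 13.0% of all. Their summed linear signal was 1070 to 1270 in LE, 1050 to 1310 in whole embryos, 301 to 415 in EF and 212 to 349 in PNP. The summed linear signal of 5 epidermal genes was 4840 to 5790 in LE, 4350 to 4910 in whole embryos, 431 to 574 in EF and 34.9 to 45.8 in PNP. The 7 genes of muscle and paraxial mesoderm summed to 1730 to 1900 in PNP, 833 to 1110 in whole embryos, 82.7 to 119 in LE and 71.8 to 119 in EF. What these other tissues contribute to the values below was not tested.

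Of the 8 probe sets, 7 were higher on each EF array than on any of the 9 other arrays, a pattern shown by 7.46% of all probe sets. EF lay above whole embryos on every array for 7 of the 8 (23.8% of all), above PNP for 7 (20.4% of all) and above LE for all 8 (23.2% of all). Since this pattern is the one by which the genes were noticed, nothing further is read from these counts. The exception was a second *foxd1* probe set, which lay under the background on every array. Below the EF level the genes differed in which tests they passed, and no test compared one member with another. *fezf2* and both *hesx1* copies passed as lower in PNP and in LE than in whole embryos, whereas *nr2f1* and *nr2f2* had no group outside EF that passed a test against another. Whole-embryo means were 5.36 for *fezf2*, 4.71 for *hesx1* L and 3.27 for *hesx1* S, beside 3.16 for *nr2f1* and 3.27 for *nr2f2*. The part of whole-embryo level in which genes passed was not tested. *foxd1* on its brighter probe set was also lower on every PNP and LE array than in whole embryos, but only its LE difference passed. *barhl2* was higher in PNP than in whole embryos. In whole embryos *barhl2* exceeded the ceiling on 1 of 3 arrays, and *nr2f1* gave 2.62, 4.08 and 2.77. A signal near the ceiling leaves little room to measure a fall, and the part of this in the results was not tested.

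**Figure D1:**
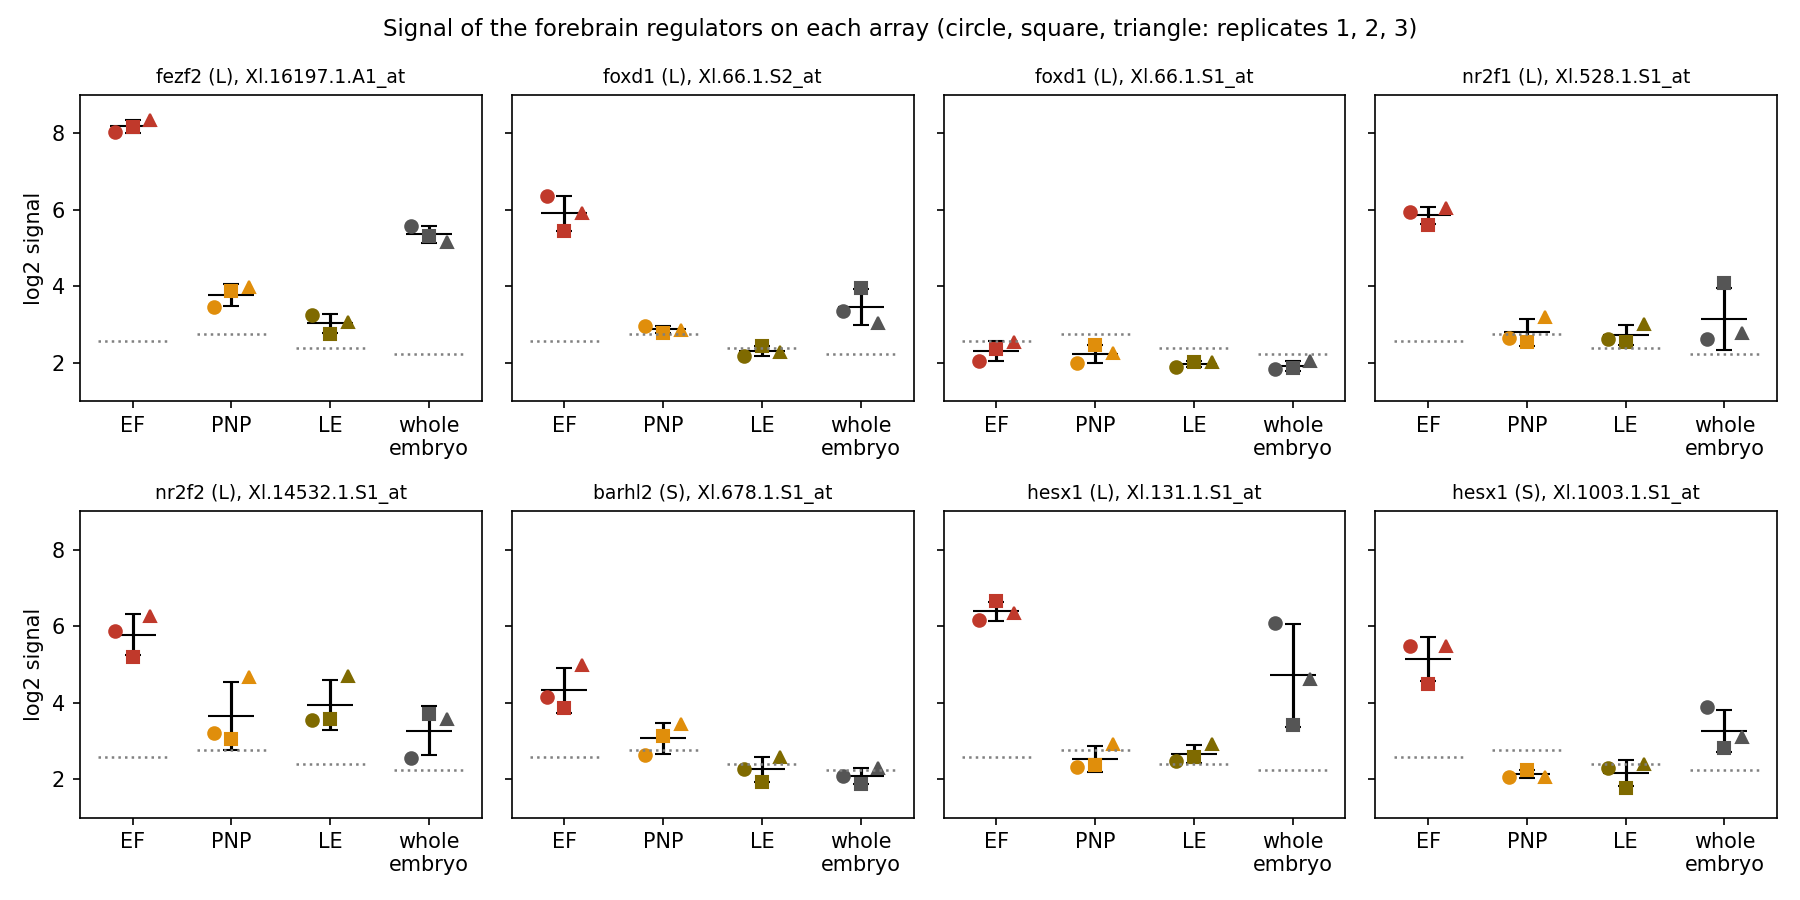
Log2 signal (vertical axis) of the 8 probe sets on the 12 arrays, with circles, squares and triangles for replicates 1, 2 and 3, horizontal bars for the group mean, error bars for the SD and dotted lines for the highest background ceiling of the group's arrays. EF points lie above all others in 7 panels, the whole embryo is intermediate for *fezf2* (5.17 to 5.59), and the whole-embryo arrays of *hesx1* L spread from 3.42 to 6.09.

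*fezf2* encodes a zinc finger repressor of the early forebrain, which in the mouse also directs the identity of deep cortical projection neurons. The signal of its L copy was 8.03, 8.16 and 8.35 on the EF arrays and 5.59, 5.31 and 5.17 on the whole-embryo arrays. It was 3.45, 3.87 and 3.99 in PNP and 3.26, 2.77 and 3.08 in LE. The 4 groups did not overlap, and *fezf2* was above the background ceiling on every array, so that its order of EF, whole embryos, PNP and LE was measured throughout. Group means were 8.18 ± 0.16, 5.36 ± 0.21, 3.77 ± 0.28 and 3.04 ± 0.25. EF exceeded whole embryos by 2.82 ± 0.18 (SE), or 7.08-fold, PNP 21.3-fold and LE 35.4-fold, with no test.

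Outside EF, *fezf2* was the member with the firmest differences. PNP exceeded LE by 0.73 ± 0.18 (SE), or 1.66-fold, with an adjusted p of 0.0101. Of all probe sets, 13.0% were called higher and 12.6% lower in this comparison, and *fezf2* was the 1 of 8 member probe sets called. PNP lay below whole embryos 3.01-fold (adjusted p = 4.29e-05) and LE below whole embryos 4.99-fold (adjusted p = 9.07e-06). The excess over LE was lost without LE replicate 2, at 0.60 and an adjusted p of 0.051, without both replicates 3 (0.0713) and under the methods' t-test (0.112, range over 21 alternatives 0.00443 to 0.112). Both differences from whole embryos passed the threshold under all 21 alternatives. The whole-embryo arrays also took part in the choice of the genes, so these differences are not independent of it.

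*hesx1* encodes a paired-like homeobox repressor of the anterior neural plate that is needed for telencephalon, eye and pituitary, and whose loss in humans and mice disturbs all of these. Here it was measured for both copies. The L copy gave 6.16, 6.66 and 6.35 in EF, 2.31, 2.37 and 2.92 in PNP and 2.48, 2.58 and 2.91 in LE. In whole embryos it gave 6.09, 3.42 and 4.62. PNP and LE overlapped near the background ceiling, while the 3 whole-embryo arrays ranged from close to the EF level to little above LE. The S copy gave 5.48, 4.49 and 5.47 in EF and 3.88, 2.82 and 3.10 in whole embryos. It gave 2.07, 2.25 and 2.07 in PNP, below the ceiling on all 3 arrays, and 2.30, 1.77 and 2.41 in LE.

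Both copies of *hesx1* were lower in PNP and LE than in whole embryos, and PNP and LE could not be told apart. Against whole embryos, the L copy fell by 2.18 on the log2 scale in PNP, or 4.53-fold (adjusted p = 0.00628), and by 2.06 in LE, or 4.16-fold (adjusted p = 0.0215). The S copy was lower at least 1.69-fold in PNP (adjusted p = 0.0181) and 2.15-fold in LE (adjusted p = 0.0427), where "at least" means that PNP was taken at its background ceiling. As measured, the PNP fold was 2.19. LE exceeded the ceiling on 2 of 3 arrays and was not raised to it, so the 1.69 and 2.15 are not comparable. PNP minus LE was −0.12 for L, with a 95% interval from −1.17 to 0.93, and −0.03 for S, from −0.69 to 0.63 (adjusted p = 0.890 and 0.963). In both copies whole-embryo replicate 1 was the highest and whole-embryo replicate 2 the lowest of the whole-embryo arrays. Without whole-embryo replicate 1 the L copy's difference of PNP from whole embryos shrank to −1.49 and that of LE to −1.37, and without whole-embryo replicate 2 they grew to −2.83 and −2.70.

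The LE result for *hesx1* was the less firm. For the L copy it failed without any single LE array, with adjusted p-values of 0.061, 0.0683 and 0.0504 (range over 22 alternatives 0.000854 to 0.246). For the S copy it failed without any 1 of the LE or PNP arrays or of whole-embryo replicates 1 and 3, and the adjusted p over 21 alternatives ran from 0.0203 to 0.215. In PNP the S copy failed without PNP replicate 1 (0.0519) or whole-embryo replicate 1 (0.065), over a range of 0.00739 to 0.129. EF values are described only, and they were 3.19-fold above whole embryos, 14.5-fold above PNP and 13.3-fold above LE for L. The excess of the L copy over whole embryos, 1.68 on the log2 scale, was 2.37 without whole-embryo replicate 1 and 1.03 without whole-embryo replicate 2. For S they were 3.69-fold above whole embryos, at least 6.24-fold above PNP (8.09-fold as measured) and 7.93-fold above LE as measured. On EF replicate 2 the L copy had its highest EF value and the S copy its lowest, so the copies did not vary together within EF.

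*foxd1*, a winged helix factor that in mouse and chick marks the temporal retina and the ventral diencephalon, had a pair of probe sets for its L copy that disagreed. On the probe set ending in S2_at the EF arrays gave 6.37, 5.45 and 5.91 and the whole-embryo arrays 3.37, 3.97 and 3.05. PNP gave 2.97, 2.79 and 2.87, and LE gave 2.18, 2.45 and 2.30, of which 1 of 3 exceeded the ceiling. No group overlapped another. On the one ending in S1_at all 12 arrays lay between 1.85 and 2.55 and below the ceiling, so that probe set measured no *foxd1* level, and differences between its signals are not read as differences of *foxd1*. The S2_at probe set alone is read here.

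Of the *foxd1* differences outside EF, the fall in LE against whole embryos passed, at 2.22-fold and an adjusted p of 0.0126. It failed when PNP replicate 3 and LE replicate 3 were both left out (adjusted p = 0.0595) and under the methods' t-test (0.15), over a range of 0.00775 to 0.15. PNP minus whole embryos was −0.58 ± 0.24 (SE, adjusted p = 0.109) and PNP minus LE was 0.57 ± 0.24 (adjusted p = 0.114). PNP lay below every whole-embryo array and above every LE array, but neither difference passed. PNP minus LE passed under 3 of 22 alternatives, when the 2 groups were fitted alone (adjusted p = 0.0158), under the methods' t-test (0.0333) and for the mean of both probe sets (0.0436), over a range of 0.0158 to 0.268. That mean includes the S1_at probe set, which lay below the ceiling on every array, so it is no check on *foxd1*. Without whole-embryo replicate 3, PNP minus whole embryos reached −0.79 and an adjusted p of 0.0484 (range 0.0484 to 0.514). EF stood 5.46-fold above whole embryos, 8.18-fold above PNP and 12.1-fold above LE. On the log2 scale the mean of both *foxd1* probe sets gave 1.42 in place of 2.45 over whole embryos, and that mean is likewise not read as a *foxd1* difference.

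*nr2f1* and *nr2f2* encode COUP transcription factors, orphan nuclear receptors that in the mouse pattern the cortex and act together in the optic vesicle. *nr2f1* L gave 5.93, 5.60 and 6.04 in EF against 2.66, 2.55 and 3.20 in PNP and 2.62, 2.54 and 3.03 in LE. In whole embryos it gave 2.62, 4.08 and 2.77. The 3 groups other than EF overlapped, with whole-embryo replicate 2 standing apart above the rest. *nr2f2* L gave 5.86, 5.20 and 6.28 in EF, 3.21, 3.06 and 4.67 in PNP, 3.55, 3.58 and 4.71 in LE and 2.55, 3.69 and 3.58 in whole embryos. Here too the groups other than EF overlapped, and in both PNP and LE replicate 3 was more than 1 log2 unit above its fellows.

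Neither receptor gene passed a test outside EF. For *nr2f1*, PNP minus LE was 0.07, with a 95% interval from −0.64 to 0.78 (adjusted p = 0.906), PNP minus whole embryos was −0.36 (0.465) and LE minus whole embryos −0.43 (0.440). For *nr2f2* these were −0.30, with an interval from −1.32 to 0.72 (adjusted p = 0.697), 0.37 (0.598) and 0.67 (0.391). The intervals are wide, and a missed threshold does not show equal levels. Without whole-embryo replicate 2 both *nr2f1* differences from whole embryos changed sign, to 0.11 and 0.04, and without PNP replicate 3 the *nr2f2* difference of PNP from whole embryos became −0.14. EF was 6.50-fold above whole embryos, 8.32-fold above PNP and 8.74-fold above LE for *nr2f1*, and 5.69-fold, 4.39-fold and 3.56-fold for *nr2f2* in the same order.

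*barhl2*, a BarH-like homeobox gene of the diencephalon and, later, of amacrine and ganglion cells of the retina, was represented by its S copy. EF gave 4.15, 3.85 and 4.98, and PNP gave 2.64, 3.12 and 3.45. LE gave 2.27, 1.93 and 2.58, and whole embryos gave 2.10, 1.88 and 2.31. *barhl2* was the member with PNP in the second place, above every LE and every whole-embryo array, while LE exceeded the ceiling on 2 of 3 arrays and whole embryos on 1 of 3. EF was 4.69-fold above whole embryos, 2.38-fold above PNP and 4.19-fold above LE.

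In PNP *barhl2* rose 1.97-fold over whole embryos, by 0.98 ± 0.29 (SE, adjusted p = 0.0279). The PNP signals lay above their array ceilings of 2.27, 2.48 and 2.77. Ceilings of the whole-embryo arrays were lower, at 2.24, 2.10 and 2.17, and the part of this in the rise was not tested. A low whole-embryo signal was part of what chose the genes, so this rise is not independent of the choice. Of all probe sets 10.2% were higher and 12.1% lower in this comparison, and 3 of 8 member probe sets (*fezf2* and both *hesx1* copies) were lower. *barhl2* was the 1 of 8 called higher. The call failed without PNP replicate 2 or 3 or without whole-embryo replicate 1 or 2 (adjusted p = 0.075, 0.0962, 0.0599 and 0.09, range over 21 alternatives 0.00512 to 0.122). PNP minus LE was 0.81 ± 0.29, with an interval from 0.19 to 1.43 and an adjusted p of 0.0553, just short of the threshold. Of its 21 alternatives 10 passed, including 3 that left out 1 array, over a range of 0.0107 to 0.194. LE minus whole embryos was 0.16 (adjusted p = 0.760).

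**Figure D2:**
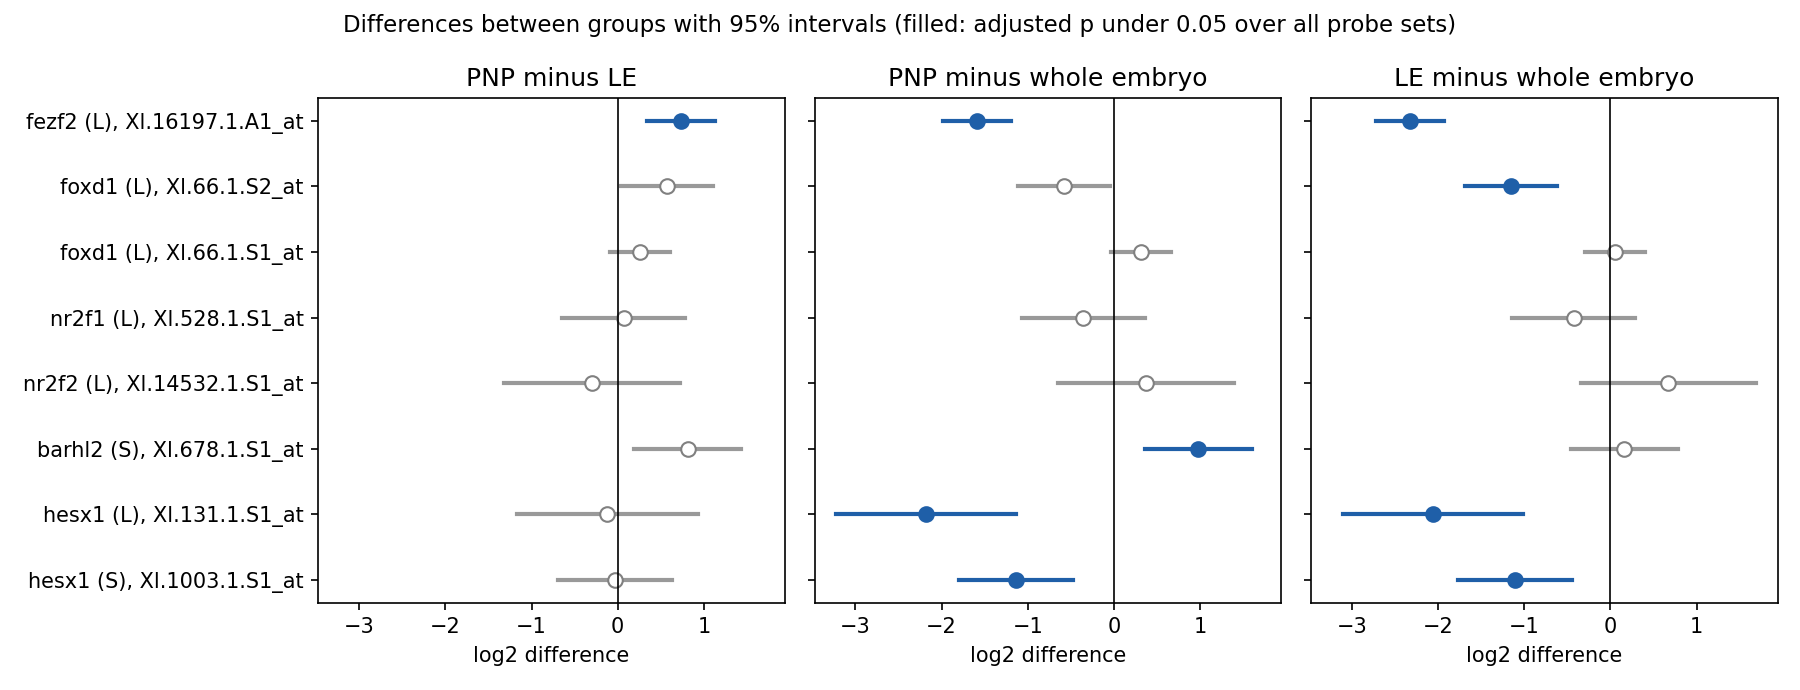
Log2 differences (horizontal axis) of the 8 probe sets (vertical axis) in PNP minus LE, PNP minus whole embryos and LE minus whole embryos, with 95% intervals of the limma fit and filled symbols where the adjusted p was under 0.05. One probe set is called in PNP minus LE, 4 in PNP minus whole embryos and 4 in LE minus whole embryos.

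In LE against whole embryos, 3.23% of all probe sets were called higher and 5.40% lower. Of the 8 member probe sets, 0 were higher and 4 lower (*fezf2*, *foxd1* on S2_at and both *hesx1* copies). In PNP against LE the limma fit gave unadjusted p-values of 0.00162 for *fezf2*, 0.0381 for *foxd1* on S2_at and 0.0146 for *barhl2*. The other member probe sets had larger ones. For these genes the PNP arrays all lay above the LE arrays. The shares of all probe sets with such a p or such a separation were not counted, so nothing is read from the number of members. The whole-embryo arrays took part in the contrast from which the genes were chosen, and the comparisons with whole embryos share those arrays, so neither the falls nor the rise against whole embryos are independent of the choice or of one another. The median difference over all probe sets was 0.02 in PNP minus LE, 0.07 in PNP minus whole embryos and 0.04 in LE minus whole embryos.

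The members varied more between replicates than most probe sets. The residual SD of the fit was above the median of all probe sets (0.223) for 7 of 8. It was 0.711 for *hesx1* L and 0.691 for *nr2f2*, larger than in 99.4% and 99.3% of all probe sets, and 0.230 for *fezf2*, larger than in 52.8%. Replicate 3 was the highest of its group for 5 of 8 in PNP and 6 of 8 in LE, and in both groups for *nr2f1*, *nr2f2*, *barhl2* and *hesx1* L. PNP replicate 3 also had the highest background ceiling (2.77) and the lowest share of probe sets above it (61.1%). The part of these array differences in the members' values was not tested.

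Likeness was measured as the root mean square difference between log2 profiles over the 12 arrays, each centred on its mean, so that 0 would be the same profile. These values follow largely from the EF level by which the genes were chosen, and they carry no test. Within the set, *foxd1* and *nr2f1* were the most alike (0.397), followed by *foxd1* and *hesx1* S (0.511) and by *nr2f2* and *barhl2* (0.597). *nr2f1* and *nr2f2* stood at 0.659 and the L and S copies of *hesx1* at 0.683, so neither was the closest pair of the set. The S copy was still the member probe set nearest to *hesx1* L. Profiles were centred but not scaled, so the size of a gene's differences counts in these values. *fezf2* was nearest to *foxd1* (0.749) and *hesx1* L (0.761).

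Among 5455 named genes above background in some group, the profile nearest to *fezf2* was that of the eye field gene *rax* (0.506), followed by *pax6* (0.506) and *lhx2* (0.552), against a median of 2.00 over all candidates. The means of EF, PNP, LE and whole embryos were 6.51, 2.44, 2.16 and 4.27 for *rax* and 8.06, 3.84, 3.56 and 5.98 for *pax6*. Nearest to *hesx1* were *crx* (0.476), a homeobox gene of photoreceptors and pineal, *rax* (0.552) and *six3* (0.612), with a median of 1.72. *foxd1* was nearest to the neural POU gene *pou3f2* (0.351), the adaptor gene *sh2d3c* (0.395) and the kinase gene *fyn* (0.481), with a median of 1.42. For *nr2f1* they were *sh2d3c* (0.446), the eye field factor *six6* (0.451) and *pou3f2* (0.471), with a median of 1.37. *nr2f2* was nearest to *ssbp4* (0.454), the histone methyltransferase gene *suv39h1* (0.557) and again *six6* (0.559), and *barhl2* to the axon guidance gene *sema3a* (0.436), *nupr1* (0.462) and *dck.1* (0.489). The medians over candidates were 1.15 and 0.97.

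Of 14 listed relatives of the members in the same gene families, 10 were measured, and each is read here from its probe set of highest mean signal. EF lay above all 9 other arrays for 3 of them, *nr2c1*, *nr2e1* and *nr2f5*, where 7.46% of all probe sets did so. Outside EF, 3 were higher in PNP than in LE, 1 was lower and 6 did not pass, with a median difference of 0.13 against 0.02 over all probe sets and beside 13.0% called higher and 12.6% lower among all. In PNP against whole embryos 3 were higher, 2 lower and 5 did not pass (median 0.06, beside 10.2% and 12.1%), and in LE against whole embryos 0 were higher, 3 lower and 7 did not pass (median −0.01, beside 3.23% and 5.40%). No test compared the relatives with the members.

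Within the *foxd* family, the genes split between regions. *foxd4l1.1* S, which in *Xenopus* keeps newly induced neural cells immature, gave 8.32, 8.05 and 8.24 in PNP, 5.37, 4.92 and 5.73 in whole embryos, 4.70, 5.33 and 4.72 in EF and 2.19, 2.04 and 1.89 in LE. Unlike *foxd1*, it was highest in PNP, where no array overlapped another group, and it lay at background in LE. PNP exceeded LE at least 59.0-fold (adjusted p = 9.17e-10) and whole embryos 7.29-fold (adjusted p = 1.1e-06), and LE was lower than whole embryos at least 8.09-fold (adjusted p = 2.3e-06). *foxd3*, a gene of premigratory neural crest, rose in PNP against LE on the probe set of each copy, by 1.04 for L (adjusted p = 0.00406) and 0.82 for S (adjusted p = 0.0114). Most measured genes of a neural crest list that includes *foxd3* went the other way. Of 6, 1 was higher in PNP than in LE and 4 were lower (median −1.32, beside 13.0% and 12.6% of all probe sets). *foxd2* S was lower than in whole embryos both in PNP, at least 1.96-fold (adjusted p = 0.00234), and in LE, 2.46-fold (adjusted p = 0.00971), with means of 3.21 in EF and 3.48 in whole embryos. Without LE replicate 2 the S copy of *foxd3* missed the threshold against LE (0.73, adjusted p = 0.0525, range 0.00445 to 0.0586). *foxd4l1.2* L rose in PNP against whole embryos by 0.57 (adjusted p = 0.0437), a call lost under 13 of 21 alternatives (range 0.0136 to 0.163). Against whole embryos the S copy of *foxd3* also rose in PNP, by 0.63 (adjusted p = 0.0475, likewise lost under 13 of 21, range 0.015 to 0.198), and the L copy fell in LE by 0.93 (adjusted p = 0.0243, lost under 7 of 21, range 0.0066 to 0.119).

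*nr2c1*, a testicular orphan receptor gene more distant from *nr2f1* and *nr2f2*, was well above background on all 12 arrays for its L copy. It gave 5.50, 5.47 and 5.73 in EF, 4.82, 4.09 and 4.66 in PNP, 4.99, 5.12 and 5.13 in whole embryos and a mean of 5.05 ± 0.06 in LE. EF was thus highest and PNP lowest, both without overlap, over a narrow range. PNP was below LE by −0.53 (adjusted p = 0.0404) and below whole embryos by −0.55 (adjusted p = 0.0362), and these calls were lost under 12 and 11 of 21 alternatives (ranges 0.016 to 0.218 and 0.0154 to 0.22). Without PNP replicate 2 they were −0.31 and −0.34. Its 2 S probe sets passed in none of the 3 comparisons.

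Means of the remaining relatives lay between 2.05 and 3.21. *fezf1* S, the forebrain paralogue of *fezf2*, had means of 2.77 in PNP, 2.61 in EF, 2.16 in LE and 2.15 in whole embryos, and PNP exceeded LE at least 1.36-fold (adjusted p = 0.00765) and whole embryos by 0.62 (adjusted p = 0.00849). *fezf1* lay above the ceiling on 2 of 3 arrays in PNP and on 1 of 3 in whole embryos. Both of its calls were lost under the methods' t-test (adjusted p = 0.0663 against LE and 0.116 against whole embryos). *nr2f5* S and *nr2f6* L passed in none of the 3 comparisons, and *nr2f5* had means of 3.02, 2.27, 2.39 and 2.38 in EF, PNP, LE and whole embryos. *barhl1* S, the paralogue of *barhl2*, stayed between 1.90 and 2.56 on its brighter probe set and passed in none. *nr2e1*, an eye field factor of the same receptor family, gave 3.60, 2.99 and 3.04 in EF and at most 2.42 elsewhere, and passed in none of the 3 comparisons outside it.

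**Figure D3:**
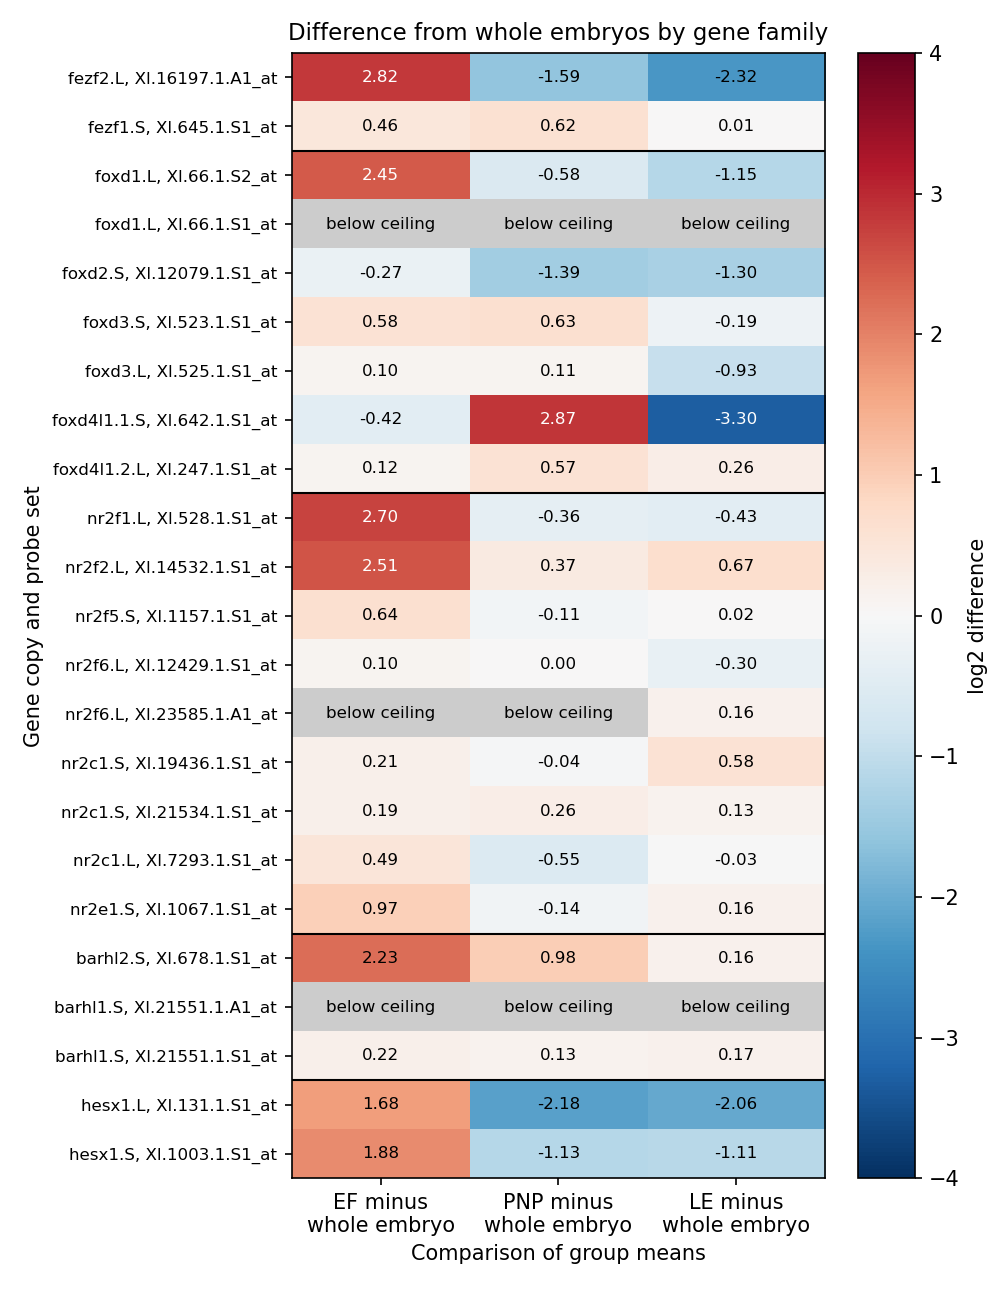
Log2 difference from whole embryos (colour and printed value) of group means for EF, PNP and LE (columns) in each probe set of the members and their measured relatives (rows, with lines between families). Grey cells mark comparisons of 2 groups that both lay below the background ceiling on all arrays. Members lie between 1.68 (*hesx1* L) and 2.82 (*fezf2*) in EF, except the *foxd1* probe set ending in S1_at (grey), and *foxd4l1.1* is instead positive in PNP (2.87) and negative in LE (−3.30).

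A wider list of other forebrain regulators was read in the same way. Of 32 genes 22 were measured. In PNP against LE 2 rose, 4 fell and 16 did not pass (median 0.06, beside 13.0% higher and 12.6% lower among all probe sets). In PNP against whole embryos 2 rose and 5 fell (median 0.15, beside 10.2% and 12.1%). In LE against whole embryos 3 rose and 3 fell (median 0.06, beside 3.23% and 5.40%). With so few genes, these counts are not read as a result about forebrain regulators. With 1 array left out, the counts in LE against whole embryos were 1 to 2 higher and 1 to 3 lower, so the 3 that rose never all remained called, and 1 rose without LE replicate 2 or LE replicate 3 and 1 fell without LE replicate 2. In PNP against LE, 1 rose without LE replicate 1, LE replicate 2 or PNP replicate 3, and 2 fell without LE replicate 3 or PNP replicate 2. In PNP against whole embryos, 3 fell in place of 5 without any 1 of 9 of the 12 arrays, the exceptions being LE replicate 3, PNP replicate 3 and whole-embryo replicate 1. A pair of genes of this list, *emx2* and *otx1*, stood higher in LE than in PNP by a wide margin. *emx2*, a homeobox gene of dorsal telencephalon that the mouse also uses in the urogenital system, gave 7.58, 7.63 and 7.84 in LE, 2.69, 3.05 and 3.29 in PNP, 6.64, 6.64 and 6.48 in EF and 5.90, 7.51 and 6.32 in whole embryos. Its LE signal thus exceeded that of EF on every array, and PNP was 25.5-fold below LE (adjusted p = 2.54e-07). *otx1*, a head gene, was 5.26-fold lower in PNP than in LE (adjusted p = 0.000162), with means of 9.60 in EF and 7.28 in whole embryos. Under the methods' t-test the *otx1* difference missed the threshold (adjusted p = 0.0558). Over 21 alternatives it ran from −2.82 to −1.84.

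The other 3 genes named from this list differed less between PNP and LE. *gli3*, a transcription factor of the hedgehog pathway, was 1.87-fold lower in PNP (adjusted p = 0.0118), although 1 LE array overlapped PNP, and *lhx5*, a forebrain LIM homeobox gene, 1.56-fold lower (adjusted p = 0.0377). *pou3f2* was 1.79-fold higher (adjusted p = 0.0188). All 3 calls were lost when a single array was left out, for *lhx5* without LE replicate 3 (adjusted p = 0.147, and likewise without LE replicate 2 or PNP replicate 2 or 3, range 0.0157 to 0.231), for *gli3* without PNP replicate 2 (0.0517, and likewise without PNP replicate 1 or LE replicate 3, range 0.00279 to 0.158) and for *pou3f2* without LE replicate 1 (0.07, and likewise without LE replicate 2 or PNP replicate 3, range 0.00321 to 0.07).

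The eye field factors themselves give the scale on which the members can be placed. The list held *pax6*, *rax*, *six3*, *six6*, *tbx3*, *lhx2*, *nr2e1* and *otx2*. Of these, the paper names *otx2* apart from the eye field factors, as a neural patterning gene, and *nr2e1* also stands among the relatives above. All 8 were measured, and in PNP against LE 0 rose and 0 fell, beside 13.0% and 12.6% of all probe sets. In PNP against whole embryos 6 of 8 fell (median −1.84, beside 12.1% of all), and in LE against whole embryos 6 of 8 (median −1.83, beside 5.40%). Under the methods' t-test these falls were 2 of 8 and 0 of 8, in comparisons where that test called 678 and 55 of all 15491 probe sets lower. *pax6* was lower than whole embryos 4.42-fold in PNP (adjusted p = 0.000309) and 5.37-fold in LE (adjusted p = 0.000451), and *rax* 3.53-fold and 4.31-fold (adjusted p = 0.00114 and 0.00129). *fezf2* (3.01-fold and 4.99-fold) and *hesx1* L (4.53-fold and 4.16-fold) had falls of similar size, while *nr2f1*, *nr2f2* and *barhl2* had none that passed. *foxd1* on S2_at passed in LE only, at 2.22-fold. Whether any member differed from an eye field factor in these falls was not tested.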

How the data were processed

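RNA of 4 tissue groups was hybridised to 12 one-colour Affymetrix *X. laevis* arrays, 3 per group. The authors processed the scans by the RMA method, as the paper and the submitters' processing notes state, and deposited 1 table of linear signal intensities with a column for each array and 0 others. The scans themselves were not used here. Log2 of each intensity was the value analysed, without an added constant, a filter or another scaling. The table's floor is lower than the stated steps would lead one to expect, and signals near it depend on how that floor arose.

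Of 15611 probe sets, 120 controls were left out. The platform's annotation gave 1 symbol to 9304 of the other 15491, several to 195 and none to 5992. Symbols were updated through the gene table of assembly v10.1, used for names only, in which 9227 matched, the 8 of the members included. No sequences were used here.

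Tests were made in limma 3.58.1 under R 4.3.3 (lmFit and eBayes on all arrays, two-sided, Benjamini-Hochberg over 15491 probe sets), in PNP against LE, PNP against whole embryos and LE against whole embryos. The script was tested on simulated data. Figures were drawn with Python 3.11.15 and matplotlib 3.10.9. A "fold" is the power of 2 of a log2 difference, and "at least" marks one in which a group below the background ceiling on all its arrays was raised, array by array, to the ceiling where its signal was lower. Arrays have no depth, and their number, 3 per group, sets the precision.

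Members and gene lists were chosen with earlier results of these data known, and the ceiling after the values were seen. Named were the members, their relatives, the 5 forebrain regulators with the largest called difference in PNP against LE, the 3 genes most alike in profile to each member, and *pax6* and *rax* as examples of the eye factors. The alternatives were the replicate number as a block, a fit of the 2 groups compared, quantile normalization, median centring, an eBayes trend, the methods' t-test, a filter on dim probe sets, array weights, averaging over probe sets of 1 gene, the omission of single arrays, and, as an addition chosen after seeing the data, PNP replicate 3 and LE replicate 3 left out together.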

Additional observations from a re-analysis of the deposited data

Results flagged for a closer look

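The loss of *fezf2* relative to whole embryos was smaller in PNP than in LE, by 0.732 on the log2 scale. The difference was tested as PNP minus LE in the limma fit (adjusted p = 0.0101), and all 3 PNP arrays lay above all 3 LE arrays. Both tissues share the whole-embryo arrays as their reference, so those arrays cancel out of this difference. The call was lost without LE replicate 2 (0.60, adjusted p = 0.051), without PNP replicate 3 and LE replicate 3 (0.0713) and under the methods' t-test (0.112). Whether a single array stood apart was not tested.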

How the results depend on the processing

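With 3 arrays per group, near-background signals and 2 contrasts sharing whole embryos, calls close to the threshold moved with the processing. *fezf2* was called lower than in whole embryos, in PNP and in LE, under every alternative run. Those whole-embryo arrays also took part in the choice of the genes, so these *fezf2* calls are not independent of it. Single calls that were lost or gained, 154 and 15 times over all alternatives, mostly stand beside the genes in the results, and the cause was not tested. The t-test also lost *hesx1* L in PNP against whole embryos (adjusted p = 0.187). The labels do not say that a number marks a shared day or female. The deviations of same-numbered arrays of different groups correlated at −0.172 to 0.208 over 18 pairs, 3 of them above 0.1, the highest being PNP and LE replicates 3, and 5 of 12 arrays correlated best with their own number. The samples were therefore not treated as paired, and the replicate block is given only as an alternative, under which *barhl2* passed in PNP against LE (adjusted p = 0.0107).

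In PNP against LE the number of member probe sets called higher was 1. It was 2 with the replicate block, quantile normalization, median centring, the eBayes trend, the filter on dim probe sets and array weights (with *barhl2* added), 3 when only the 2 groups were fitted and 0 without PNP replicate 3 and LE replicate 3. Leaving out 1 array gave 0 to 2. In PNP against whole embryos, member probe sets called higher went from 1 to 0 under the methods' t-test, array weights and the removal of both replicates 3. They were 0 to 1 over single arrays left out. Member probe sets called lower went from 3 to 1 under the t-test. In LE against whole embryos, member probe sets called lower went from 4 to 2 with only the 2 groups, 1 under the t-test, 1 without both replicates 3 and 2 to 4 without single arrays.

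Over all probe sets, PNP against LE gave 992 higher under the t-test in place of 2020. PNP against whole embryos gave 1025 higher with only the 2 groups, 3372 with median centring and 409 under the t-test in place of 1585, and 678 lower under the t-test in place of 1869. LE against whole embryos gave 1034 higher with median centring, 30 under the t-test and 258 without both replicates 3 in place of 500 (217 to 588 without single arrays). It gave 55 lower under the t-test and 521 without both replicates 3 in place of 836 (499 to 883 without single arrays).

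Signs turned only among differences that had not passed. Quantile normalization gave −0.057 for the dimmer probe set of *nr2f6* in PNP against whole embryos, and in LE against whole embryos −0.050 for *foxd1* S1_at (below background on all arrays), −0.089 for *fezf1*, 0.14 for *nr2c1* and −0.070 for *nr2f5*. Median centring gave 0.015 for *hesx1* S in PNP against LE, 0.042 for *nr2f5* in PNP against whole embryos and 0.076 for *nr2c1* in LE against whole embryos. Array weights gave 0.039 for *hesx1* S in PNP against LE and, in LE against whole embryos, −0.012 for *fezf1* and −0.010 for *nr2f5*. Without both replicates 3, *hesx1* S became 0.12 in PNP against LE, *nr2f2* −0.14 in PNP against whole embryos, and *fezf1* −0.042 and *nr2f5* −0.092 in LE against whole embryos. 

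Over single arrays left out, PNP minus LE ranged from −0.13 to 0.22 for *nr2f1*, −0.81 to 0.080 for *nr2f2*, −0.32 to 0.0074 for *hesx1* L, −0.22 to 0.096 for *hesx1* S and −0.24 to 0.054 for *foxd2*. PNP minus whole embryos ranged from −0.63 to 0.11 for *nr2f1*, −0.14 to 0.67 for *nr2f2*, −0.057 to 0.22 for *foxd3* L and −0.14 to 0.12 for *nr2f6*. LE minus whole embryos ranged from −0.70 to 0.036 for *nr2f1*, −0.094 to 0.11 for *fezf1*, −0.36 to 0.0084 for *foxd3* S and −0.092 to 0.084 for *nr2f5*, and EF minus PNP from −0.035 to 0.22 for *foxd1* S1_at.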
